A study of Mus musculus with 6 samples.

Results

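The interferon-induced GTPases described here are 10 genes of Raw264.7 macrophages, *Gbp2*, *Gbp3*, *Gbp4*, *Gbp5*, *Gbp7*, *Igtp*, *Irgm1*, *Irgm2*, *Iigp1* and *Ifi47*. They were taken by gene symbol, with no measured value in the rule, as named guanylate-binding proteins (GBPs) and immunity-related GTPases (IRGs), and all 10 were among the 24786 gene symbols of the expression table. Polyadenylated RNA was sequenced from cells infected with a lentivirus that carried either a control hairpin (group sh-NC) or a hairpin targeting *Etv5*, a gene of the ETS transcription factor family (group sh-Etv5), with n = 3 libraries in each group. Raw264.7 is a macrophage line from a tumor induced by Abelson murine leukemia virus. The labels of both groups also give the strain C57BL/6 and postnatal day 21. The paper names this strain only for its mice, and a postnatal day does not describe a cell line. These tags may therefore belong to other samples of the study, and they were not taken as properties of the cells. Expression was examined 24 or 48 h after infection according to the labels, which do not say which time applies to these libraries, while the study's text calls the sequenced cells stable transfectants and its methods include puromycin selection of infected cells, so they may not be from an acute infection. The labels and methods used here do not state which shRNA was sequenced or whether replicates were infected separately, so the p-values measure only the spread between libraries, which may be technical. The labels name no added interferon or microbe.

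The values are RPKM, that is read numbers scaled to gene length and to the mapped reads of the library, so levels are per length and can be set side by side between genes. Differences between groups were tested on log2(RPKM + 1) with limma over the 10738 genes that reached 1 RPKM in 3 or more of the 6 libraries, and a gene was called at a Benjamini-Hochberg adjusted p-value under 0.05. For genes near or under 1 RPKM such log2 fold changes are smaller than those of the RPKM values themselves. With 3 libraries against 3, an exact two-sided permutation test of a single gene cannot give a p-value under 0.1, and 7 members reached that limit. *Etv5* itself fell from 9.49 ± 0.367 to 5.13 ± 0.196 RPKM (SD, n = 3 each, log2 fold change -0.78, SE 0.0565, limma adjusted p = 2.74e-07). The summed RPKM of the 8 macrophage markers *Adgre1*, *Cd68*, *Csf1r*, *Itgam*, *Lyz2*, *Spi1*, *Cd14* and *Mertk* was 4409 to 4535 in sh-NC libraries and 3518 to 3640 in sh-Etv5 libraries. Most of this sum was *Lyz2*, whose mean fell from 2834 to 2041 RPKM, while *Adgre1* rose 4.35-fold and *Itgam* 3.77-fold. Of the 8 markers 4 were called higher and 3 lower, beside 33.3% and 41.0% of all tested genes, while *Mertk* stayed under the filter. The part of these changes in the results below was not tested. The markers fixed for fibroblasts, lymphocytes, epithelial cells and neutrophils did not exceed 0.365 RPKM in any library. In a bulk sample, fewer expressing cells and less RNA per cell cannot be told apart.

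GBPs and IRGs belong to the dynamin-related GTPases that interferons induce in macrophages. GBPs assemble on vacuoles that hold bacteria or parasites and on bacteria in the cytosol, where they help to break the membrane and to engage caspases. Among the IRGs, *Irgm1*, *Irgm2* and *Igtp* (also known as Irgm3) encode regulators that reside on the membranes of the host cell, whereas *Iigp1* (Irga6), *Ifi47* (Irgd) and the *Tgtp* genes encode effectors that the regulators keep inactive until they load onto a parasite vacuole. Transcription of these genes is classically driven through gamma-activated sites (GAS) and through interferon-stimulated response elements (ISRE), which interferon-regulatory factors bind.

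RefSeq windows on GRCm38.p6, covering 250 bases upstream of each annotated start, were read for these letters, since they are the sites through which interferon acts on this family. Of the 10 members, 8 had an entry, all but *Gbp4* and *Iigp1*. The windows below are printed 5′ to 3′ on the strand of the gene, up to the base before the start site, with capitals marking matches to a GAS (TTCNNNGAA) or an ISRE (GAAANNGAAA, on either strand). They were chosen because they belong to the members that were called, together with *Gbp7*, the neighbor of *Gbp3*. Of *Irgm1* only the 30 bases around its matches are shown. All 120 bases before its RefSeq start lie in annotated GENCODE exons, these 30 and both matches among them.
Igtp (chr11:58199436-58199555, plus strand): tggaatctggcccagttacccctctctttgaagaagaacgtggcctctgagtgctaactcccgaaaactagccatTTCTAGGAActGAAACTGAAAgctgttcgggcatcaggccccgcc
Irgm2 (chr11:58214857-58214976, plus strand): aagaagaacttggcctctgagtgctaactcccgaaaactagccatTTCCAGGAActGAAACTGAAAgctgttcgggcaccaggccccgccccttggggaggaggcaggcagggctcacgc
Irgm1 (chr11:48871423-48871452, minus strand): aaGAAATAGAAACCGAAActgattctcaat
Gbp3 (chr3:142559924-142560043, plus strand): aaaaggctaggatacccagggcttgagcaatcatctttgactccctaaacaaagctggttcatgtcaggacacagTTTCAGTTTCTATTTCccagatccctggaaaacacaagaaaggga
Gbp7 (chr3:142530216-142530335, plus strand): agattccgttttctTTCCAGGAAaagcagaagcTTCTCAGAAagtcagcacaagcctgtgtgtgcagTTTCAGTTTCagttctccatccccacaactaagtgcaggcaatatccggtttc

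An ISRE match was present in 7 of the 8 members with a window, against 2.98% of all 32851 RefSeq windows of the same length. Here and below, members were counted by gene and the background by window. *Gbp3* was counted through its upstream window, and its downstream window held no match. A GAS match was present in 4 of 8 (*Gbp5*, *Gbp7*, *Igtp* and *Irgm2*), against 7.02% of all windows. In *Igtp* the GAS began 45 bases before the start (position -45) and the ISRE at -34, and in *Irgm2* they began at -75 and -64, with the same spacing. Aligned at an offset of 30 bases, the printed windows of *Igtp* and *Irgm2* were identical at 87 of 90 bases (96.7%). The capitals of *Irgm1* hold 2 overlapping ISRE matches at -30 and -24. *Gbp3* likewise held overlapping ISRE matches at -45 and -39 on the opposite strand and had no GAS match, whereas *Gbp7* held GAS matches at -106 and -87 and an ISRE match at -53. The ISRE matches of *Gbp7* and the upstream one of *Gbp3* are the same 10 letters. *Ifi47* held neither match, which says only that these letters are not in its window. The ETS motif CCGGAAGT, searched as these exact letters, was in the windows of 0 of the 8 members and in 2.88% of all windows. Shorter or variant ETS sites were not searched, and at that share 0 of 8 says little. The kappaB motif GGGANNTTCC was in *Gbp5* alone, at -77, against 1.21% of all windows. These are matches of letters in the reference genome and not measured binding. The genome of the Raw264.7 cells was not read, so their own sequence may differ.

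**Figure D1:**
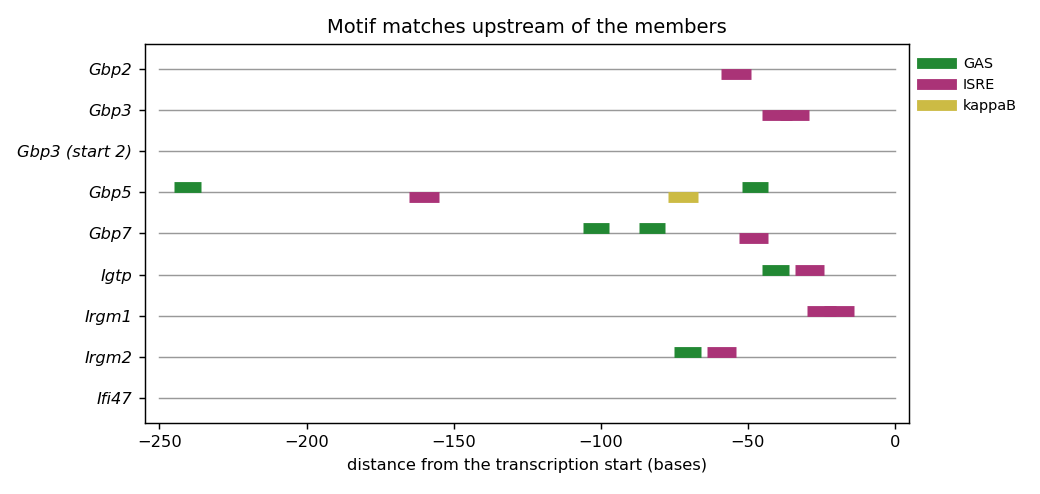
Letter matches to the GAS, ISRE and kappaB motifs in the 250 bases before the RefSeq start sites of the members (x axis, bases from the start site, a row per window, with bars above the line for the strand of the gene and below it for the opposite strand). *Igtp* and *Irgm2* show a GAS followed by an ISRE at the same spacing, *Irgm1*, *Gbp2* and the upstream start of *Gbp3* show ISRE matches only, and *Ifi47* and the downstream start of *Gbp3* show none.

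Of the 10 members, 6 passed the filter and 4 (*Gbp2*, *Gbp4*, *Gbp5* and *Iigp1*) did not. The members did not share a single direction. *Gbp3* was called higher in sh-Etv5 cells, *Igtp*, *Irgm1* and *Irgm2* were called lower, and *Gbp7* and *Ifi47* were not called. In the same fit 33.3% of all tested genes were called higher and 41.0% lower (74.3% in either direction), so with 6 tested members, of which 1 and 3 were called, the counts by themselves are not a result about the family. The median log2 fold change over all 10 members was -0.03, and over the 6 tested members it was -0.10, against -0.05 over all tested genes. Summed over the members, expression was 69.2 to 71.7 RPKM in sh-NC libraries and 57.0 to 60.8 RPKM in sh-Etv5 libraries.

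*Irgm1* dominated the family. It made up 56.5% of the members' summed RPKM in sh-NC cells and 51.4% in sh-Etv5 cells, and its mean level in sh-NC cells was above that of 84.6% of tested genes. In sh-NC cells the mean levels ran from *Irgm1* through *Igtp*, *Ifi47*, *Irgm2*, *Gbp7*, *Gbp3*, *Gbp2*, *Iigp1* and *Gbp4* down to *Gbp5*. The ranges of neighbors in that order did not overlap, except that those of *Ifi47* and *Irgm2* overlapped, as did those of *Iigp1*, *Gbp4* and *Gbp5*. In sh-Etv5 cells *Gbp3* stood above *Gbp7*, *Iigp1* was last, and only *Gbp5* and *Iigp1* overlapped.

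**Figure D2:**
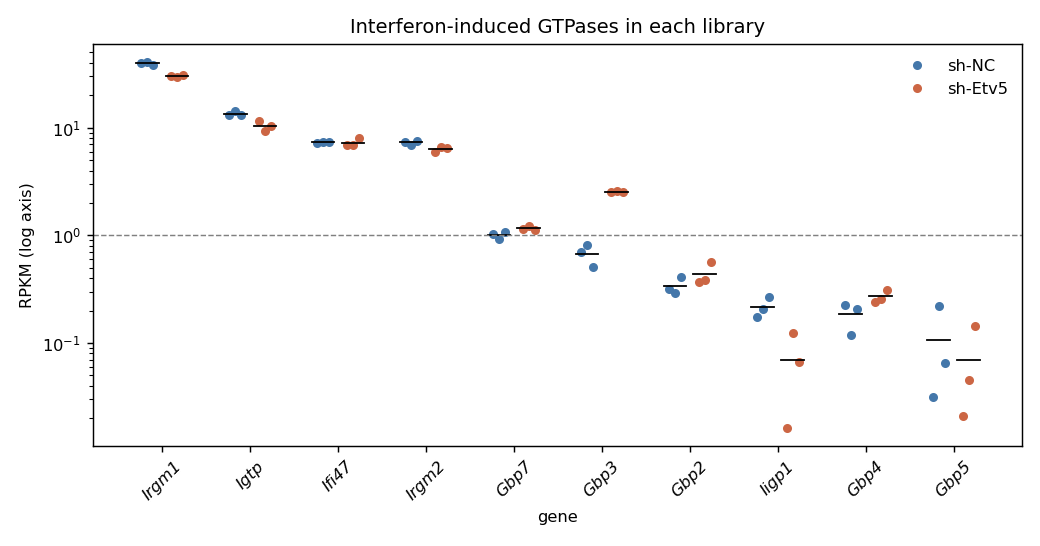
RPKM of each member in every library (y axis, log scale), with a point per library of sh-NC (blue) and sh-Etv5 (orange), black lines at the group means and a dashed line at 1 RPKM. *Irgm1* lies near 40 RPKM in sh-NC cells and near 30 RPKM in sh-Etv5 cells, *Igtp*, *Ifi47* and *Irgm2* lie between 5 and 15 RPKM, and *Gbp3* is the member that crosses the dashed line between the groups in all libraries.

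The 3 IRG regulators were lower in sh-Etv5 cells. *Irgm1*, whose product acts in autophagy and the control of IRG effectors, was at 40.2, 40.6 and 38.6 RPKM in sh-NC libraries, against 30.3, 29.5 and 31.2 RPKM in sh-Etv5 libraries. All sh-Etv5 libraries were thus below all sh-NC libraries, and the mean fell by 23.8% (log2 fold change -0.38, SE 0.0397, limma adjusted p = 5.44e-06). *Igtp*, an IRG regulator found at the endoplasmic reticulum and lipid droplets, was at 13.1, 14.2 and 13.1 RPKM in sh-NC libraries, against 11.6, 9.38 and 10.4 RPKM in sh-Etv5 libraries. The groups did not overlap, and the mean fell by 22.5% (log2 fold change -0.34, SE 0.0701, limma adjusted p = 0.00105). *Irgm2*, a regulator at the Golgi, was at 7.39, 6.94 and 7.56 RPKM in sh-NC libraries, against 5.92, 6.64 and 6.53 RPKM in sh-Etv5 libraries. These groups did not overlap either, but the gap between the nearest libraries was small and the mean fell by 12.8% (log2 fold change -0.17, SE 0.0615, limma adjusted p = 0.0248). The *Irgm2* call was lost without the filter (adjusted p = 0.0720), without sh-NC replicate 1 (0.0681), without sh-NC replicate 3 (0.0867) and without sh-Etv5 replicate 1 (0.0952), each by limma.

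*Igtp* and *Irgm2* lie next to each other on the plus strand of chromosome 11, *Igtp* from 58199556 to 58207591 with 3 exons and *Irgm2* from 58199618 to 58222782 with 2 exons in GENCODE release M21 on GRCm38. GENCODE starts *Irgm2* inside the first part of *Igtp*, whereas RefSeq starts it at 58214977, and 162 exonic bases on the same strand belong to both (8.01% of *Igtp* exons). Of the 50-base stretches of *Igtp* transcripts, 11.8% also occur in *Irgm2*, which can include these shared exonic bases. Some reads may therefore have been counted for both genes. *Irgm1* lies apart from them on the minus strand from 48861968 to 48871683, and only 0.38% of its 50-base stretches occur in another gene. The ratio of *Irgm1* to *Igtp* was 2.85 to 3.07 in sh-NC libraries and 2.615 to 3.14 in sh-Etv5 libraries, so these ratios overlapped. The ratio of *Igtp* to *Irgm2* was 1.74 to 2.05 in sh-NC libraries and 1.41 to 1.96 in sh-Etv5 libraries and overlapped as well.

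The IRG effectors among the members had different levels. *Ifi47* was at 7.25, 7.32 and 7.44 RPKM in sh-NC libraries, against 6.85, 6.92 and 7.99 RPKM in sh-Etv5 libraries. The sh-Etv5 libraries lay on both sides of the sh-NC libraries, and the gene was not called (log2 fold change -0.02, 95% confidence interval -0.16 to 0.12, limma adjusted p = 0.814). The ratio of *Irgm1* to *Ifi47*, which does not depend on how the libraries are scaled, was 5.19 to 5.55 in sh-NC libraries and 3.90 to 4.43 in sh-Etv5 libraries without overlap. *Ifi47* (chromosome 11, 49076587 to 49096974, plus strand) shares 111 exonic bases with the olfactory receptor gene *Olfr56* on its strand. *Iigp1*, on chromosome 18 from 60376027 to 60392634, was at 0.175, 0.206 and 0.265 RPKM in sh-NC libraries, against 0.0163, 0.123 and 0.0667 RPKM in sh-Etv5 libraries. All libraries were far under 1 RPKM and the groups did not overlap. With all 24786 symbols in the fit, limma gave *Iigp1* an adjusted p of 0.0464 (log2 fold change -0.19), and over 13 alternatives this value ranged from 0.0130 to 0.162 and was above 0.05 in 9, the replicate block among them (0.0782) and the omission of any library but sh-Etv5 replicate 2.

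Among the GBP members, *Gbp3* alone was called, while *Gbp8* and *Gbp2b*, outside the members, were also higher without overlap (below). It was at 0.701, 0.805 and 0.506 RPKM in sh-NC libraries, against 2.53, 2.56 and 2.51 RPKM in sh-Etv5 libraries. All sh-Etv5 libraries exceeded all sh-NC libraries and the means differed 3.78-fold (log2 fold change 1.09, SE 0.0869, limma adjusted p = 6.02e-07). A log2 fold change above 1 with a call was seen in 6.23% of tested genes. *Gbp3* passed the filter only through the sh-Etv5 libraries, as did 286 genes in all, of which 99.3% were called higher. A gene that passes in this way had to differ, and *Gbp3* was not tested when an sh-Etv5 library was left out. *Gbp7*, whose product links GBPs to the NADPH oxidase, was at 1.03, 0.921 and 1.08 RPKM in sh-NC libraries, against 1.14, 1.22 and 1.13 RPKM in sh-Etv5 libraries. Every sh-Etv5 library was above the sh-NC libraries by a small margin, but the gene was not called (log2 fold change 0.11, 95% confidence interval -0.07 to 0.28, limma adjusted p = 0.252). The ratio of *Gbp3* to *Gbp7* was 0.469 to 0.874 in sh-NC libraries and 2.10 to 2.23 in sh-Etv5 libraries, so the order of these neighboring genes was reversed in every library.

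The other GBP members were under 1 RPKM in every library. *Gbp2*, an interferon-gamma-induced GBP that acts at parasite vacuoles, was at 0.314, 0.293 and 0.410 RPKM in sh-NC libraries, against 0.367, 0.380 and 0.562 RPKM in sh-Etv5 libraries. These groups overlapped (limma without the filter, adjusted p = 0.436). *Gbp4* was at 0.226, 0.119 and 0.208 RPKM in sh-NC libraries, against 0.242, 0.258 and 0.312 RPKM in sh-Etv5 libraries. They did not overlap, yet the gene was not called without the filter (limma adjusted p = 0.185). *Gbp5*, known for its part in NLRP3 inflammasome assembly, was at 0.0316, 0.222 and 0.0645 RPKM in sh-NC libraries, against 0.0209, 0.0450 and 0.142 RPKM in sh-Etv5 libraries and overlapped (limma without the filter, adjusted p = 0.930). Depth is unknown, so it cannot be said how many reads these levels rest on. Of the 6 tested members, 2 (*Gbp3* and *Gbp7*) were higher without overlap and 3 (*Igtp*, *Irgm1* and *Irgm2*) lower, beside 34.3% and 42.1% of all tested genes. Of the 4 members under the filter, *Gbp4* was higher without overlap and *Iigp1* lower, beside 16.7% and 6.74% of the genes under the filter that were above 0 in a library. Over all 10 members this made 3 higher and 4 lower, beside 19.6% and 20.2% of all listed genes. Those shares are lowered by listed genes at 0 in all libraries, which cannot separate, and no member was such a gene.

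**Figure D3:**
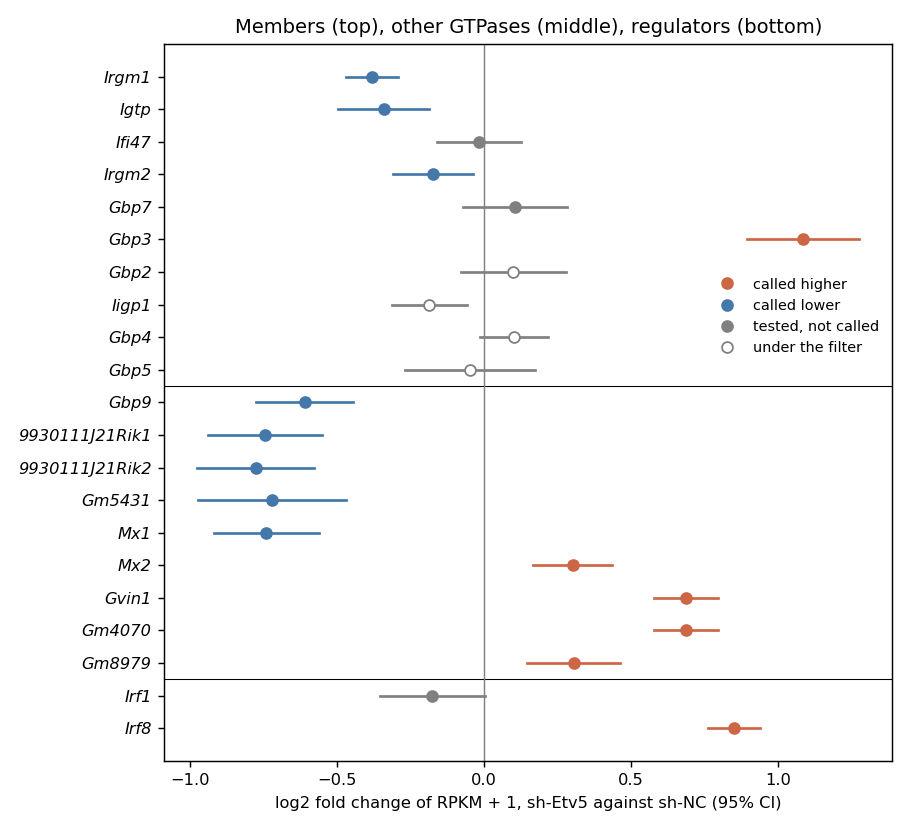
Log2 fold change, sh-Etv5 against sh-NC, with 95% confidence intervals from limma on log2(RPKM + 1) (x axis) for the members, the tested GTPases of related families, and *Irf1* and *Irf8*. Open points are members under the filter, whose values come from the fit of all symbols. *Gbp3* lies at 1.09, *Irgm1*, *Igtp* and *Irgm2* lie between -0.38 and -0.17, and the intervals of *Ifi47* and *Gbp7* include 0.

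Genes of the same families outside the 10 were examined next. Of 6 other GBPs, 1 passed the filter. It was *Gbp9*, which was at 2.97, 3.41 and 2.99 RPKM in sh-NC libraries, against 1.79, 1.70 and 1.60 RPKM in sh-Etv5 libraries and was called lower (log2 fold change -0.61, SE 0.0750, limma adjusted p = 2.10e-05). *Gbp8* was at 0.134, 0.0792 and 0.200 RPKM in sh-NC libraries, against 0.808, 0.774 and 0.864 RPKM in sh-Etv5 libraries, which is 5.93-fold higher without overlap (limma without the filter, adjusted p = 0.000564). *Gbp4*, *Gbp8* and *Gbp9* share their first exonic bases on the minus strand of chromosome 5, where their annotated starts are 105139586, 105139540 and 105139539. The ratio of *Gbp8* to *Gbp9* nevertheless was 0.0232 to 0.0669 in sh-NC libraries and 0.452 to 0.539 in sh-Etv5 libraries. *Gbp2b*, between *Gbp3* and *Gbp2* on chromosome 3, was at 0.187, 0.189 and 0.260 RPKM in sh-NC libraries, against 0.631, 0.513 and 0.499 RPKM in sh-Etv5 libraries (limma without the filter, adjusted p = 0.00438). The remaining GBPs were *Gbp6* and *Gbp10*, whose groups overlapped, and *Gbp11*, which did not exceed 0.0576 RPKM and was lower without overlap. Of the 50-base stretches of *Gbp6* and *Gbp10*, 70.65% and 84.07% occur in other genes. *Gbp8* and *Gbp2b* were thus higher and *Gbp11* lower without overlap. This stands beside 16.7% and 6.74% of the genes under the filter that were above 0 in a library.

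Of 10 other IRGs, 3 passed the filter and all of these were called lower, beside 41.0% of all tested genes. Given the limits stated with each gene below, this count by itself is not a result about the family. *9930111J21Rik1* went from 10.8 ± 0.587 to 6.09 ± 0.952 RPKM (SD, n = 3 each, log2 fold change -0.74, limma adjusted p = 1.55e-05). *9930111J21Rik2* went from 12.4 ± 1.10 to 6.86 ± 0.978 RPKM (SD, n = 3 each, log2 fold change -0.78, limma adjusted p = 1.27e-05). These neighbors are not independent measurements, since 80.4% of the 50-base stretches of *9930111J21Rik1* also occur in *9930111J21Rik2*. *Gm5431* went from 2.03 ± 0.512 to 0.820 ± 0.0540 RPKM (SD, n = 3 each, log2 fold change -0.72, limma adjusted p = 0.000157). It passed the filter only through the sh-NC libraries, so it had to differ and its call is no independent support. Of the 7 IRGs under the filter, *Tgtp2*, *Gm12250* and *Gm4951* were lower without overlap, with means of 0.0183 to 0.102 RPKM in sh-Etv5 cells against 0.136 to 0.280 RPKM in sh-NC cells. This stands beside 6.74% of the genes under the filter that were above 0 in a library. *Tgtp2* is uncertain as a single gene, since 85.8% of its 50-base stretches occur in *Tgtp1*, whose groups overlapped. GENCODE types *Gm12250* as a processed pseudogene and, among the GBPs above, *Gbp11* as a polymorphic pseudogene. The other 4 of the 7 IRGs overlapped or were at 0 in all libraries. No other IRG was higher without overlap.

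Of the other interferon-inducible large GTPases, 4 of 5 tested genes were called higher and 1 lower, beside 33.3% and 41.0% of all tested genes. However, 3 of those called higher (*Gvin1*, *Gm4070* and *Gm8979*) share sequence and do not count as separate measurements. GENCODE types *Mx2* as a polymorphic pseudogene and *Gm8979* as an unprocessed pseudogene. *Mx1*, an antiviral dynamin-like GTPase, fell from 2.64 ± 0.129 to 1.18 ± 0.151 RPKM (SD, n = 3 each, log2 fold change -0.74, limma adjusted p = 7.83e-06). *Mx2* rose from 7.13 ± 0.167 to 9.03 ± 0.661 RPKM (SD, n = 3 each, log2 fold change 0.30, limma adjusted p = 0.000941). *Gvin1*, a very large interferon-inducible GTPase, rose from 11.5 ± 0.240 to 19.2 ± 0.917 RPKM (SD, n = 3 each, log2 fold change 0.69, limma adjusted p = 2.14e-07). *Gm4070* gave nearly the same values as *Gvin1*, with which it shares 94.99% of its 50-base stretches, so both are uncertain as single genes. *Gm8979* rose from 2.53 ± 0.0578 to 3.37 ± 0.275 RPKM (SD, n = 3 each, log2 fold change 0.31, limma adjusted p = 0.00252), and 85.8% of its 50-base stretches occur in other genes, 27.3% in *Gvin1*.

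The members lie in 6 places of the genome. *Gbp5*, *Gbp7*, *Gbp3* and *Gbp2* form a cluster of 144.0 kb on the plus strand of chromosome 3, with *Gbp7* from 142530342 to 142550149 (11 exons) and *Gbp3* from 142560026 to 142573209 (12 exons). *Gbp7* shares 637 exonic bases with the pseudogene *Gm43802*. Outside the GTPase families, 21 listed genes lay within 100 kb of a member, of which 14 were tested, 4 were called higher, 5 lower and 5 were not called. Over all tested genes 33.3% were called higher and 41.0% lower, so these counts by themselves are not a result about the regions. The largest change near *Gbp3* was that of *Kyat3* (2.22 ± 0.460 to 3.49 ± 0.306 RPKM, SD, n = 3 each, log2 fold change 0.49, limma adjusted p = 0.00127). Near *Irgm1* it was that of *Trim7* (13.04 ± 0.101 to 7.15 ± 0.268 RPKM, SD, n = 3 each, log2 fold change -0.78, limma adjusted p = 8.74e-08), beside 1 other gene called lower (*Snord96a*, log2 fold change -0.51) and 2 called higher. Around *Igtp* and *Irgm2*, 3 of 5 tested neighbors were called lower and 0 higher, too few genes to set apart from those shares. The single tested neighbor of *Iigp1*, *Smim3*, rose from 1.82 to 18.1 RPKM (log2 fold change 2.76, limma adjusted p = 7.19e-12), whereas *Iigp1* itself stayed under 0.3 RPKM.

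**Figure D4:**
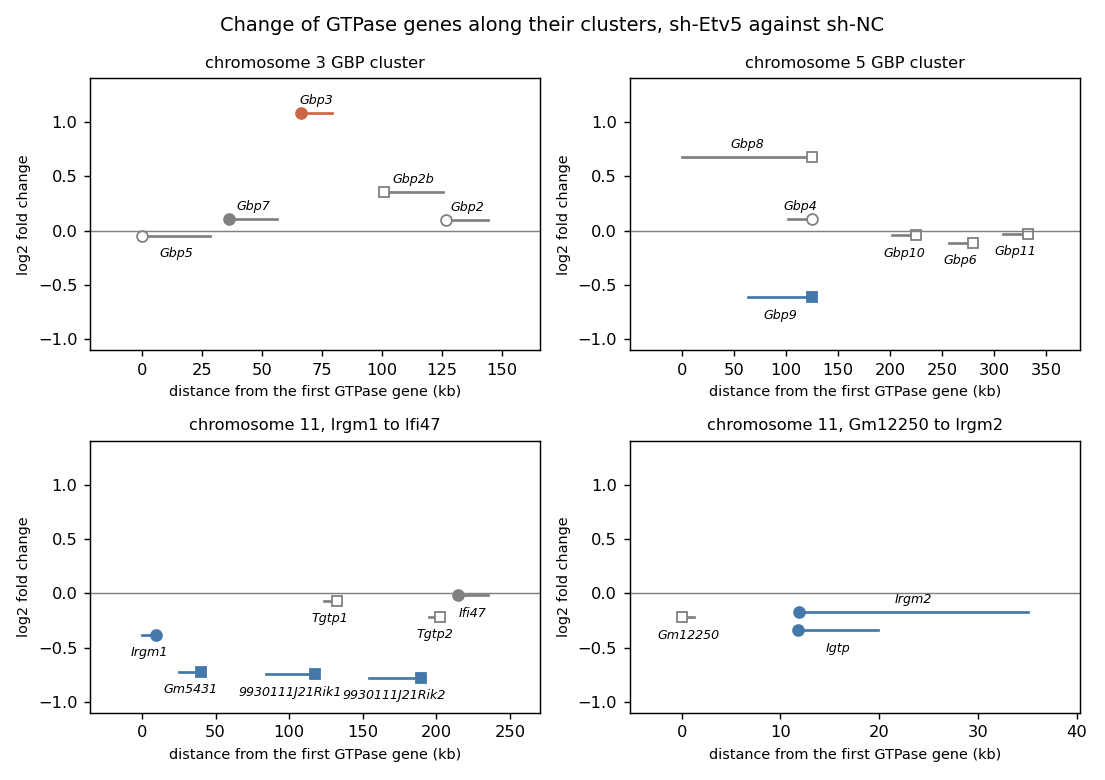
Log2 fold change from limma, sh-Etv5 against sh-NC (y axis), of GBP and IRG genes in 4 regions of the genome (x axis, kb from the first GTPase gene of the region). Lines span each gene, symbols mark its start (circles for members, squares for relatives, open where the gene was under the filter), and orange and blue mark calls of higher and lower. *Gbp3* stands above its neighbors in the chromosome 3 cluster, *Gbp8* and *Gbp9* start next to each other and have opposite signs, and *Gm5431*, *9930111J21Rik1* and *9930111J21Rik2* lie between *Irgm1* and *Ifi47*.

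The interferon-gamma receptor and its signal transducers were then examined as the pathway upstream of these genes. Of 12 genes, 10 were tested, 4 were called higher and 3 lower. For this list and the interferon lists below, the shares over all tested genes were 33.3% higher and 41.0% lower. *Ifngr1*, the ligand-binding chain of the receptor, fell from 12.4 ± 0.589 to 9.15 ± 0.639 RPKM (SD, n = 3 each, log2 fold change -0.40, limma adjusted p = 0.000106). *Irf8*, a transcription factor of macrophage development, rose from 25.9 ± 0.904 to 47.4 ± 0.927 RPKM (SD, n = 3 each, log2 fold change 0.85, limma adjusted p = 7.23e-09). *Irf1*, which binds the ISRE, was at 4.82, 4.77 and 5.10 RPKM in sh-NC libraries, against 4.84, 4.15 and 3.73 RPKM in sh-Etv5 libraries and was not called (log2 fold change -0.18, limma adjusted p = 0.0677). With sh-Etv5 replicate 1 left out, *Irf1* was called lower (log2 fold change -0.26, limma adjusted p = 0.0107), as it was after quantile normalization (0.0295) or a rescaling to equal sums (0.0264). *Ifng*, the ligand, was listed at 0 in all 6 libraries.

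Of 10 genes of the type I interferon pathway, 8 were tested, 3 were called higher and 4 lower. *Irf7* rose from 77.3 ± 0.885 to 136 ± 4.52 RPKM (SD, n = 3 each, log2 fold change 0.80, limma adjusted p = 4.14e-09), whereas the receptor chain *Ifnar2* fell from 18.1 ± 0.393 to 13.1 ± 0.224 RPKM (SD, n = 3 each, log2 fold change -0.44, limma adjusted p = 3.24e-06). *Irf3*, which switches on interferon genes after pathogen sensing, fell from 14.6 ± 0.153 to 11.3 ± 0.761 RPKM (SD, n = 3 each, log2 fold change -0.34, limma adjusted p = 0.000164). *Ifnb1* was listed at 0, 0 and 0.175 RPKM in sh-NC libraries and was at 0.540, 0.570 and 0.272 RPKM in sh-Etv5 libraries.

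Other targets of interferon moved in both directions. Of 15 type I interferon targets, all tested, 11 were called higher and 3 lower, with a median log2 fold change of 0.59. *Rsad2*, the antiviral viperin, rose from 2.56 ± 0.0810 to 28.6 ± 2.06 RPKM (log2 fold change 3.05), *Zbp1*, a sensor of Z-form nucleic acid, from 4.93 ± 0.332 to 16.8 ± 1.09 RPKM (1.58) and *Ifit2* from 9.10 ± 0.335 to 21.5 ± 0.598 RPKM (1.15), each SD with n = 3 and limma adjusted p-values of 7.64e-12, 2.29e-09 and 2.75e-09. The genes called lower were *Oasl2* (log2 fold change -0.79), *Rtp4* (-0.45) and *Ddx58* (-0.25). Of 15 other interferon-gamma targets, 11 were tested, 4 were called higher and 4 lower, with a median log2 fold change of 0.07. The genes called lower were the immunoproteasome subunits *Psmb9* (log2 fold change -0.58) and *Psmb10* (-0.15), the Fc receptor *Fcgr1* (-0.56) and *Tapbp* (-0.39), which helps to load peptides. *Cd274*, the checkpoint ligand PD-L1, rose from 0.708 ± 0.197 to 5.34 ± 0.315 RPKM (SD, n = 3 each, log2 fold change 1.90) and, like *Gbp3*, passed the filter only through the sh-Etv5 libraries, so its call is no independent support. *Tap2*, of the peptide transporter, rose from 18.7 ± 1.13 to 30.8 ± 0.233 RPKM (log2 fold change 0.69, limma adjusted p = 1.59e-07), and the chemokine *Cxcl10* from 4.84 ± 1.11 to 8.26 ± 1.42 RPKM (0.67, 0.000807), SD with n = 3 each.

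**Figure D5:**
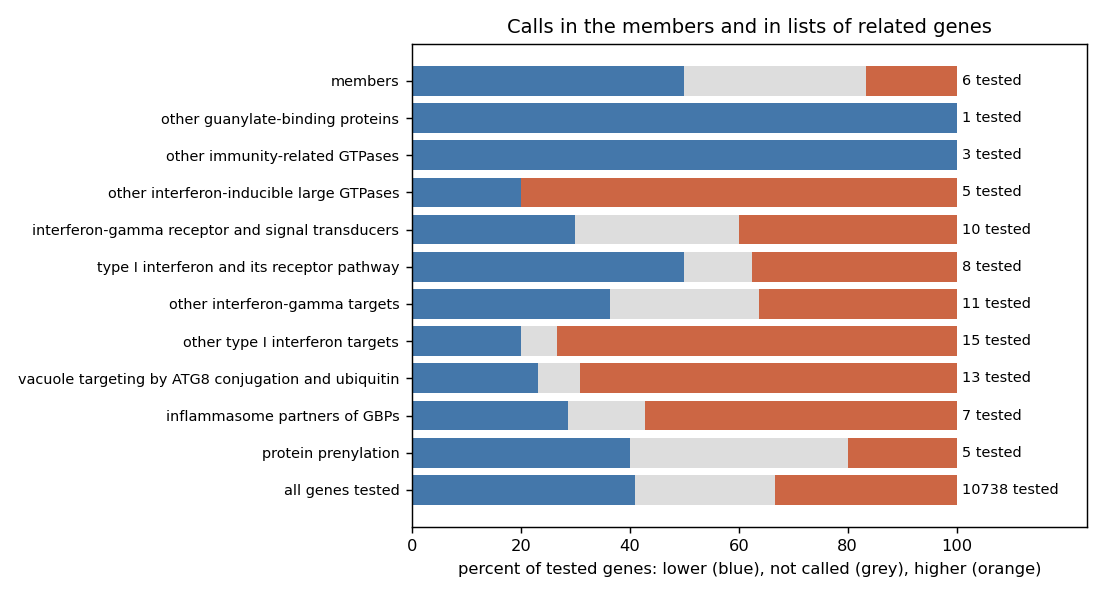
Share of the tested genes of each list that was called lower (blue), not called (grey) or called higher (orange) in sh-Etv5 cells by limma (x axis, percent of tested genes), with the number tested at the right. Over all tested genes 41.0% were called lower and 33.3% higher, 11 of 15 type I interferon targets were called higher, and the members have 3 of 6 called lower.

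Genes whose products work with GBPs and IRGs were grouped by role. For the counts below, 33.3% of all tested genes were called higher and 41.0% lower. Of 13 listed genes for the ATG8 conjugation and ubiquitin steps that guide these GTPases to vacuoles, all were tested, 9 were called higher and 3 lower, with a median log2 fold change of 0.32. *Sqstm1*, the autophagy receptor p62, rose from 108 ± 1.93 to 977 ± 10.2 RPKM (SD, n = 3 each, log2 fold change 3.17, limma adjusted p = 2.57e-14). *Map1lc3a*, an ATG8 protein, rose from 1.17 ± 0.194 to 3.43 ± 1.21 RPKM (SD, n = 3 each, log2 fold change 1.00, limma adjusted p = 0.000153), and the ubiquitin ligase *Trim21* fell from 5.25 ± 0.242 to 3.46 ± 0.394 RPKM (SD, n = 3 each, log2 fold change -0.49, limma adjusted p = 0.000129). Of 8 inflammasome partners of GBPs, 7 were tested, 4 were called higher and 2 lower, with a median log2 fold change of 0.34. The partner not tested, *Pycard*, did not exceed 0.0504 RPKM in any library. *Casp4*, the caspase (caspase-11 in mice) that senses lipopolysaccharide after GBPs expose it, was at 3.998, 5.18 and 5.19 RPKM in sh-NC libraries, against 27.0, 27.1 and 28.6 RPKM in sh-Etv5 libraries. These groups were far apart (log2 fold change 2.31, SE 0.0785, limma adjusted p = 5.99e-10). *Il1b* rose from 0.152 ± 0.0733 to 2.31 ± 0.112 RPKM (SD, n = 3 each, log2 fold change 1.53) and also passed the filter only through the sh-Etv5 libraries. *Casp1* rose from 21.9 ± 0.168 to 43.8 ± 3.99 RPKM (SD, n = 3 each, log2 fold change 0.96, limma adjusted p = 4.75e-08).

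Some GBPs reach membranes through a prenyl anchor at their C-terminus. Of 5 prenylation genes, all tested, 1 was called higher and 2 lower, beside 33.3% and 41.0% of all tested genes, with a median log2 fold change of 0.03. *Pggt1b*, the geranylgeranyl transferase subunit, fell from 7.30 ± 0.280 to 5.75 ± 0.422 RPKM (SD, n = 3 each, log2 fold change -0.30, limma adjusted p = 0.00138). *Fnta*, the subunit shared with farnesyl transferase, fell from 27.9 ± 0.319 to 24.8 ± 1.83 RPKM (SD, n = 3 each, log2 fold change -0.17, limma adjusted p = 0.0122). *Icmt*, which methylates the prenylated cysteine, rose from 12.5 ± 0.187 to 14.99 ± 0.991 RPKM (SD, n = 3 each, log2 fold change 0.24, limma adjusted p = 0.00177).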

How the data were processed

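Polyadenylated RNA of 3 sh-NC and 3 sh-Etv5 libraries was analysed, with groups and replicate numbers taken from the sample labels. The authors deposited untransformed RPKM values, with 1 row per gene symbol and 1 column per library. The submitters' processing notes name the genome build mm10, and the aligner and the gene models are not given in the sources used here. No common step was found among low values, so depth is unknown. RPKM summed to 320462 to 322949 per sh-NC library and 330454 to 340257 per sh-Etv5 library. Pearson's r of log2(RPKM + 1) was 0.996 to 0.997 within groups and 0.913 to 0.915 between groups, and no columns were identical.

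Genes that reached 1 RPKM in 3 or more of 6 libraries were compared on log2(RPKM + 1), a pseudocount of 1, in limma 3.58.1 (R 4.3.3, empirical Bayes with an intensity trend, two-sided, no covariate, Benjamini-Hochberg over all tested genes, called under 0.05). Genes under the filter were given from a fit of all symbols. The fit was tested on simulated data. The members and all gene lists were chosen with earlier results of these data known. The genes named were all members, tested genes of the related families, *Irf1*, *Irf8*, *Etv5*, the 3 largest changes of each pathway list and the largest change near each cluster. *Gbp8*, *Gbp2b*, *Tgtp2*, *Gm12250*, *Gm4951*, *Gbp6*, *Gbp10*, *Gbp11*, *Ifng*, *Ifnb1*, *Pycard*, *Snord96a* and the interferon targets called lower were named after their values were seen.

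Positions and exon overlaps came from GENCODE M21 on GRCm38 (24255 of 24786 symbols matched, 97.9%), and shared sequence is the share of 50-base stretches of a gene's transcripts found in transcripts of another gene. Start-site windows came from RefSeq (GRCm38.p6) and were searched on both strands, and matches may overlap. Of *Gbp3* the upstream of 2 start sites is printed, and the other holds no match. Python 3.11.15, NumPy 2.4.6, pandas 2.3.3 and matplotlib 3.10.9 were used. Alternatives were omission of the filter or a mean RPKM of 5 or more in its place, pseudocounts of 0.1 and 0.01, quantile normalization, rescaling of the libraries to the same sum, eBayes with no trend, omission of each library, the replicate block, an adjusted p-value under 0.01, and, added after seeing the data, a rescaling by genes outside the top 10 of any library. One item of these lists is not reported here.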

Additional observations from a re-analysis of the deposited data

How the results depend on the processing

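The count of members called higher was 1 and became 0 with a mean RPKM of at least 5, under which *Gbp3* was not tested. With single libraries left out it ranged from 0 to 1, and it was 0 without sh-Etv5 replicate 1, 2 or 3, where *Gbp3* reached 1 RPKM in 2 libraries and failed the filter of 3. The count of members called lower was 3 and ranged from 2 to 3 with single libraries left out, since *Irgm2* lost its call without sh-NC replicate 1, sh-NC replicate 3 or sh-Etv5 replicate 1, and it was 2 at an adjusted p under 0.01. No called value changed sign. The log2 fold change of *Gbp3* ranged from 0.97 to 1.93, the latter with a pseudocount of 0.01, that of *Irgm1* from -0.44 to -0.33 and that of *Igtp* from -0.41 to -0.27. The members' median moved from -0.03 to -0.11 with pseudocounts of 0.1 and 0.01. Without the filter 2 other GBPs and IRGs were called higher (*Gbp8* and *Gbp2b*) in place of 0, and with a mean RPKM of at least 5 the number called lower was 2 in place of 4. Rescaling to the same sum moved the median over all tested genes from -0.05 to -0.10.

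Replicate numbers did not pair the libraries, since the deviations of same-numbered libraries correlated at 0.0739, -0.0710 and -0.0352. With the replicate block, 1 member was called higher and 3 lower as before, and 3539 and 4361 of all genes against 3575 and 4399. Depth is unknown, so the precision of members under 1 RPKM cannot be given from counting error.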
